A study of Mus musculus with 12 samples.

Results

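The genes described here make, coat and empty the lipid droplets of macrophages. They were picked by symbol, 10 of the 16920 genes in the table, and all 10 passed the filter on low counts that left 12064 genes for testing. They comprise 4 genes of triglyceride synthesis (Lpin1, Lpin2, Dgat1 and Dgat2), 4 genes of lipolysis and its control (Pnpla2, Abhd5, Hilpda and Mgll), the droplet coat gene Plin2 and the lysosomal lipase gene Lipa. The choice used measured values, above all the loss of Lpin1 with lipopolysaccharide (LPS). The changes of these genes with LPS are therefore given as a description, without a test, and tests are given for the genotype labels.

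Macrophages store surplus fatty acids as triglyceride and cholesteryl ester in lipid droplets. Lipins remove the phosphate from phosphatidic acid to give diacylglycerol, and the DGAT enzymes add the last fatty acid to give triglyceride. Release starts with adipose triglyceride lipase, the product of Pnpla2, which is switched on by the protein encoded by Abhd5 and held back by the one encoded by Hilpda. Monoglyceride lipase, from Mgll, finishes the work and also breaks down the endocannabinoid 2-arachidonoylglycerol. Perilipin 2, from Plin2, covers the droplet surface, and Lipa encodes the acid lipase that clears lipid taken into lysosomes. In macrophages, inflammatory stimulation is known to go along with droplet storage.

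The 12 libraries were of peritoneal macrophages from C57BL/6 mice, which were wild-type (WT) or labelled Ythdf1 knockout (KO), and were kept for 6 h with PBS or with 1 µg/mL LPS, 3 libraries in each of the 4 groups. The methods of the study write the mutant as Ythdf1-/- and name no tissue-restricted driver for it, and the labels used here give no age. The record of the series says that starch broth drew the cells out, whereas the methods of the study name thioglycollate, and all groups share that step. The methods of the study call the replicates independent biological samples, and the labels number them. Neither says how many mice gave each.

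The message counted for Ythdf1, the targeted gene, was not lost from the libraries labelled KO. Its mean CPM (the normalised read count that edgeR gives relative to scaled library size) was 43.5 in WT PBS and 57.2 in KO PBS, and 201 in WT LPS and 198 in KO LPS. It was higher by 0.40 ± 0.0580 (log2, ± SE) in KO PBS than in WT PBS (adjusted p = 0.000133), and the difference under LPS was -0.03 ± 0.0557 (adjusted p = 0.724). Here and below, adjusted p comes from the quasi-likelihood test of edgeR with Benjamini-Hochberg adjustment over all 12064 genes, and 0.05 was the threshold. Counts per gene do not show whether this message was intact or gave protein. The study genotyped its Ythdf1-/- mice and blotted YTHDF1 protein in liver and spleen of bone marrow chimeras. KO is used as a label throughout. All 10 macrophage marker genes were detected in every group, with summed levels of 17700 to 20863 CPM. Of 10 adipocyte markers, 8 were in the table, and their sum of 10.01 to 46.9 CPM was nearly all Lipe, with Adipoq at no more than 1 count and Plin1 at no more than 2 in any library. Total counts lay between 21546274 and 22017005. The scaling factors (trimmed mean of M values, TMM) were 1.26 to 1.31 in PBS and 0.744 to 0.808 in LPS libraries, so that small changes with LPS depended on the scaling. In WT LPS, replicate 1 stood apart from replicates 2 and 3, at an average chi-square per gene of 32.7 and 25.5, against 3.08 between the other two. In KO LPS, replicates 2 and 3 were also far apart, at 16.7, and the other pairs within groups lay between 2.77 and 7.43.

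Under PBS, the 10 genes spanned a wide range of levels. Per kilobase of exon, Lipa had 713 ± 29.5 CPM (SD, n = 3) in WT PBS and Plin2 had 647 ± 14.9. Pnpla2 followed with 47.4, Hilpda with 25.1, Abhd5 with 18.9 and Mgll with 13.8 CPM per kb. The synthesis genes were the low end, with Dgat1 at 7.04, Lpin1 at 5.27, Lpin2 at 3.40 and Dgat2 at 0.0846 CPM per kb. Resting macrophages thus held far more message for the coat and for the lysosomal lipase than for the enzymes of triglyceride synthesis.

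Lpin1 (gene 14245, chr12:16535669-16653903, GRCm38.p6), the phosphatidate phosphatase gene, was almost lost with LPS. Its counts were 928, 863 and 937 in WT PBS and 11, 7 and 5 in WT LPS. In KO PBS they were 883, 917 and 804, and in KO LPS they were 2, 1 and 3. No PBS library came near any LPS library. Summed over the 3 libraries and scaled, the level in PBS was 74.6-fold that in LPS for WT (exact 95% counting interval 49.6 to 118) and 248-fold for KO (114 to 676). The second ratio rests on 6 counts, and these intervals cover counting error only. The fitted log2 changes were -6.20 ± 0.153 in WT and -7.89 ± 0.194 in KO, of which the latter depends on how a group at the floor of 3 counts per library is fitted. Both SE were derived from the F statistic and are too small for groups with so few counts. The counting intervals are the wider guide here.

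Lpin2 (gene 64898, chr17:71183532-71249818), a second lipin, stayed. Its level was 21.3 ± 0.809 CPM in WT PBS, 23.2 ± 1.78 in WT LPS, 21.6 ± 1.48 in KO PBS and 21.3 ± 4.0 in KO LPS (SD, n = 3). The change with LPS was 0.12 ± 0.104 in WT and -0.02 ± 0.106 in KO. With scaling by library totals alone the WT value turned to -0.54. Within a library, the ratio of Lpin1 to Lpin2 per kb went from 1.55 ± 0.108 in WT PBS to 0.0188 ± 0.00635 in WT LPS, and from 1.44 ± 0.185 in KO PBS to 0.00562 ± 0.00195 in KO LPS. Lpin2 was thus nearly the whole of the lipin message of these 2 genes after 6 h of LPS. The third lipin gene, Lpin3, did not pass the filter on low counts.

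The 2 genes of the last step of synthesis moved in opposite directions. Dgat2 (gene 67800, chr7:99153663-99182713) had 5, 7 and 4 counts in WT PBS and 200, 222 and 204 in WT LPS. In KO PBS it had 4, 15 and 13 counts, and in KO LPS 419, 400 and 446. Every LPS library was above every PBS library, and the summed, scaled level was 62.2-fold higher in WT (exact 95% counting interval 38.0 to 109) and 69.2-fold higher in KO (48.8 to 102). The paired enzyme gene Dgat1 (gene 13350, chr15:76502012-76512021) moved the other way, with 334, 383 and 394 counts in WT PBS and 175, 180 and 190 in WT LPS. Its KO libraries held 402, 389 and 394 counts with PBS and 107, 135 and 155 with LPS. The log2 changes of Dgat1 were -0.36 ± 0.104 in WT and -0.77 ± 0.108 in KO, and the groups did not overlap. The ratio of Dgat2 to Dgat1 per kb, which no scaling between libraries can alter, was 0.0121 ± 0.00341 in WT PBS and 0.960 ± 0.0668 in WT LPS. It was 0.0227 ± 0.0127 in KO PBS and 2.71 ± 0.481 in KO LPS, so that Dgat2 went from a trace to the level of Dgat1 or above it.

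On the side of lipolysis, the lipase and its activator had less message after LPS, and the inhibitor had more. Pnpla2 (gene 66853, chr7:141455188-141460743) stood at 128, 119 and 127 CPM in WT PBS and 104, 86.8 and 84.1 in WT LPS. In KO it stood at 136, 145 and 139 CPM with PBS and 72.9, 77.2 and 85.5 with LPS. The log2 changes were -0.44 ± 0.0787 in WT and -0.83 ± 0.0794 in KO. Abhd5 (gene 67469, chr9:122351616-122381524) went from 60.0, 60.7 and 58.1 to 26.5, 30.5 and 30.5 CPM in WT, a change of -1.03 ± 0.0731. In KO it went from 69.7, 65.6 and 65.9 to 37.4, 33.8 and 31.3 CPM, a change of -0.97 ± 0.0724. Neither gene overlapped between PBS and LPS.

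Hilpda (gene 69573, chr6:29272488-29275449), the hypoxia-inducible droplet protein that restrains the lipase, stood at 25.3, 31.1 and 26.6 CPM in WT PBS and 45.8, 57.6 and 57.2 in WT LPS. In KO PBS it was lower, at 15.7, 19.0 and 15.4 CPM, and in KO LPS it was the highest of all groups, at 91.1, 96.6 and 72.4 CPM. The 4 groups did not overlap. The log2 change with LPS was 0.95 ± 0.124 in WT and 2.38 ± 0.128 in KO. The ratio of Hilpda to Pnpla2 counts was 0.223 ± 0.0341 in WT PBS and 0.595 ± 0.134 in WT LPS. It was 0.119 ± 0.0104 in KO PBS and 1.12 ± 0.233 in KO LPS. The ratio of Abhd5 to Pnpla2 counts, activator to lipase, moved far less, from 0.479 to 0.323 in WT and from 0.480 to 0.439 in KO.

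**Figure D1:**
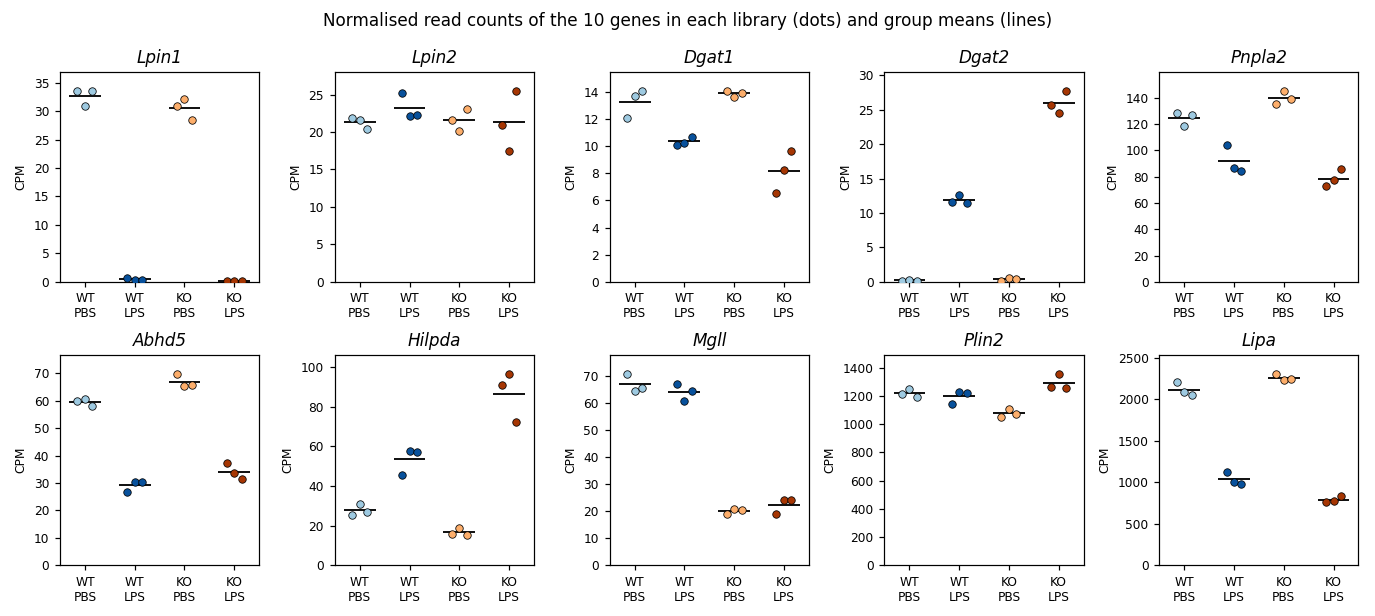
Level of each of the 10 genes in every library, in CPM on a linear axis from 0, for WT PBS, WT LPS, KO PBS and KO LPS (KO as labelled). Dots are libraries and lines are means of 3. Lpin1 is near 0 with LPS and Dgat2 is near 0 with PBS under both labels, and Mgll separates the labels under both treatments.

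Mgll (gene 23945, chr6:88724412-88828360) differed little with LPS under this scaling but split the genotype labels. Its level was 70.5, 64.4 and 65.3 CPM in WT PBS and 66.9, 60.7 and 64.2 in WT LPS. The KO libraries held 19.0, 20.7 and 20.4 CPM with PBS and 18.9, 23.9 and 23.9 with LPS. The highest KO library lay far below the lowest WT library. The change with LPS was -0.06 ± 0.0766 in WT and 0.15 ± 0.0873 in KO, and the PBS and LPS libraries overlapped under both labels. With library totals alone these changes were -0.73 and -0.65.

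The droplet coat gene Plin2 (gene 11520, chr4:86626910-86670217) stood at 1218, 1252 and 1196 CPM in WT PBS and 1143, 1231 and 1226 in WT LPS, which overlapped. In KO it stood at 1050, 1109 and 1074 CPM with PBS and 1267, 1356 and 1257 with LPS, which did not. The log2 changes were -0.03 ± 0.0543 in WT and 0.26 ± 0.0543 in KO, and the KO value turned to -0.09 with upper-quartile scaling and to -0.54 with library totals alone. The Plin2 symbol also named a second row, which belongs to a transcribed pseudogene within the same locus. It held at most 0.110% of the counts of both rows, was left out, and reads shared between them could have been split. The lysosomal lipase gene Lipa (gene 16889, chr19:34492316-34527474) went from 2215, 2086 and 2048 to 1126, 999 and 977 CPM in WT, a change of -1.03 ± 0.0632. In KO it went from 2304, 2237 and 2240 to 756, 778 and 833 CPM, a change of -1.52 ± 0.0640.

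Counted together, 3 genes were higher with LPS, 5 were lower and 2 overlapped in WT. The 3 were Lpin2, Dgat2 and Hilpda in WT, and Dgat2, Hilpda and Plin2 in KO, where 5 were lower as well and 2 overlapped. Dgat1, Lpin1, Pnpla2, Abhd5 and Lipa were the 5 under both labels. Among all genes tested, 37.1% were higher without overlap and 41.1% lower in WT, and 39.7% were higher and 41.6% lower in KO. The median log2 change of the 10 was -0.21 in WT and -0.39 in KO, beside -0.05 and -0.04 over all genes tested. Lpin1, which was chosen for its loss with LPS, is part of these counts and medians. Without it, 4 of 9 genes were lower under each label, and the median was -0.06 in WT and -0.02 in KO. Those medians over all genes moved to -0.71 and -0.84 with library totals alone and to -0.36 and -0.40 with upper-quartile scaling. The changes of Lpin1, Dgat2 and Hilpda kept their direction under each scaling run.

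**Figure D2:**
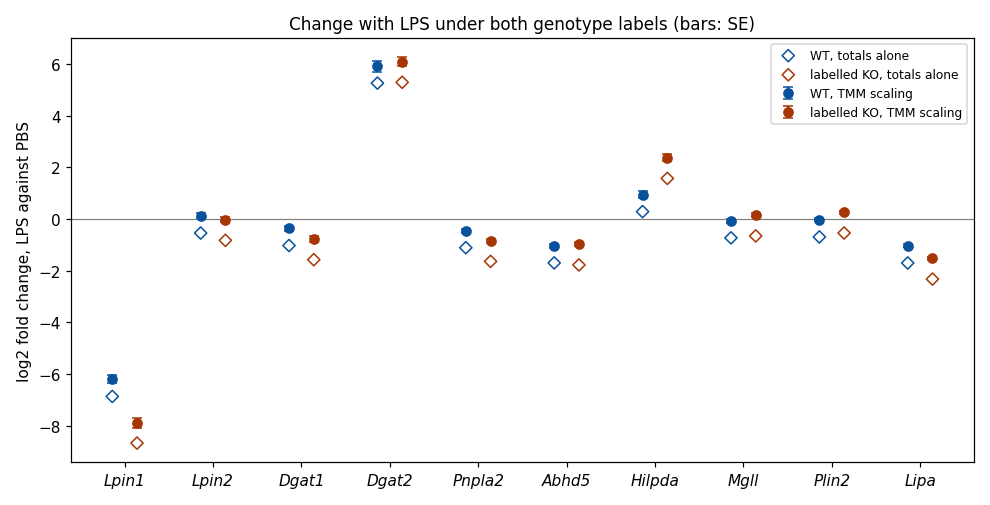
Log2 fold change of each gene with LPS against PBS, in WT (blue) and in libraries labelled KO (brown), with SE bars, after TMM scaling (filled dots) and with library totals alone (open diamonds). Lpin1 lies near -6 to -9 and Dgat2 near 5 to 6 under both scalings, and the diamonds of Lpin2, Mgll and Plin2 lie below 0. The SE bars of Lpin1 and Dgat2 are too short, since a group compared had few counts.

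Upstream sequences are shown for the gene that was lost with LPS (Lpin1), for the lipase and its inhibitor, which moved in opposite directions (Pnpla2 and Hilpda), and for the gene that split the labels (Mgll). RefSeq promoters of build GRCm38.p6 were at hand for 8 of the 10 genes. Each line gives the 250 bases before the first start site in that table, 5′ to 3′. Capitals mark matches to the kappaB-like letters GGNNTTNCC or to the E-box letters CACGTG, searched on both strands.
Lpin1, chr12:16610967-16611216, minus strand: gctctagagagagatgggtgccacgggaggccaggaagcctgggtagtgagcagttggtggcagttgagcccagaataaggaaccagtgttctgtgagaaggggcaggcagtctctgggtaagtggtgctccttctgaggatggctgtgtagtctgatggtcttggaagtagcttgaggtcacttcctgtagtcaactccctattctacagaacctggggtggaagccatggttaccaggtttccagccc
Pnpla2, chr7:141454938-141455187, plus strand: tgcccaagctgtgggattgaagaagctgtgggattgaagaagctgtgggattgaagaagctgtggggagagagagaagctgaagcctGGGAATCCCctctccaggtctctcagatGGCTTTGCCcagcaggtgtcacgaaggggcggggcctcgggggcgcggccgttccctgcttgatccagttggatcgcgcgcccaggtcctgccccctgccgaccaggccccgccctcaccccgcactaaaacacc
Hilpda, chr6:29272238-29272487, plus strand: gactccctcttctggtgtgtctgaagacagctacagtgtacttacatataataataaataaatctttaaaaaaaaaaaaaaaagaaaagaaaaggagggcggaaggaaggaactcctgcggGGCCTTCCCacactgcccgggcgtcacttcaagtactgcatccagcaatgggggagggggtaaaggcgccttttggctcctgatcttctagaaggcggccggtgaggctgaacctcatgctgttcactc
Mgll, chr6:88724162-88724411, plus strand: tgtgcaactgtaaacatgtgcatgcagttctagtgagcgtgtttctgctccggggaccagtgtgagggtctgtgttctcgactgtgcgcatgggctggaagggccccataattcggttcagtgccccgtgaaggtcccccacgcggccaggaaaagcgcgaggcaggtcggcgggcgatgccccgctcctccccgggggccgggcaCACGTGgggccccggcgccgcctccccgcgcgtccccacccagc

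The kappaB-like letters stood 129 bases before the start in Hilpda, whose message was higher with LPS, and 135 and 163 bases before it in Pnpla2, whose message was lower. The 8 genes have 12 windows in the table, and the letters were found in 4 of them, the others belonging to Lpin2 and Plin2, and in 13.5% of all promoters. The E-box letters stood 44 bases before the start in Mgll and also occurred in Lpin2, in 2 of the 12 windows and 6.02% of all promoters. The shorter letters ACGTG, the core that hypoxia-inducible factors read, lie within the E-box letters. They were found in Hilpda (43 bases before its second start site), Mgll and Lpin2, in 5 of the 12 windows and 16.6% of all promoters. The AP-1 letters TGANTCA were found in 1 window, of Hilpda (6.75% of all promoters), CCAAT in 3 windows, of Lipa, Lpin2 and Plin2 (33.8%), and TATAAA in 1 window, of Lipa (12.4%). The Lpin1 window, which lies within the span of the gene, held none of these letters and had 54.8% G and C, against a median of 52.4% over all promoters. A match describes the letters in the window only.

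The genotype labels were compared first under PBS. Of the 10 genes, 0 were higher and 3 were lower in KO PBS (Mgll, Hilpda and Plin2), while 12.3% of all genes tested were higher and 13.0% lower. At an unadjusted p under 0.05, 3 were higher and 3 lower, and DESeq2 called 1 higher (Abhd5) and 3 lower. Mgll had a log2 difference of -1.74 ± 0.0807, or 3.33-fold lower (adjusted p = 6.69e-10). Hilpda had a difference of -0.73 ± 0.129 (adjusted p = 0.00098). Plin2 had a small one of -0.18 ± 0.0543 (adjusted p = 0.0222), which was -0.13 and not called with library totals alone. Its call was also lost without any one of the 3 KO PBS libraries or of WT PBS replicates 1 and 2, with values of -0.14 to -0.18 (adjusted p up to 0.164). For Pnpla2 and Abhd5, differences of 0.17 ± 0.0772 and 0.17 ± 0.0683 did not pass (adjusted p = 0.125 and 0.0815). Neither did that of Lipa, at 0.10 ± 0.0625 (adjusted p = 0.299). With library totals alone Pnpla2 and Abhd5 passed and Plin2 did not, which gave 2 higher and 2 lower. Of the synthesis genes, Lpin1, Lpin2 and Dgat1 were not called. Lpin1 differed by -0.10 ± 0.0751 (adjusted p = 0.388), Lpin2 by 0.02 ± 0.101 and Dgat1 by 0.06 ± 0.0945. Dgat2 differed by 0.95 ± 0.436, without a test, as its 4 to 15 counts passed the filter only through the LPS libraries. It remains in the counts of the 10 genes above, among the 3 higher at an unadjusted p.

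The labels were then compared under LPS. Lpin1 is left out of the test here, since its loss with LPS chose it and its few counts with LPS passed the filter only through the PBS libraries. Of the other 9 genes, 3 were higher (Dgat2, Hilpda and Abhd5) and 4 were lower (Mgll, Lipa, Dgat1 and Pnpla2) in KO LPS than in WT LPS, while 22.1% of all genes tested were higher and 19.3% lower. Dgat2 was 2.18-fold higher, by 1.13 ± 0.109 log2 units (adjusted p = 9.90e-07). Dgat1 was lower, with a difference of -0.35 ± 0.118 (adjusted p = 0.0268). Thus one DGAT gene was higher and the other lower in the same libraries. Hilpda was higher by 0.69 ± 0.120 (adjusted p = 0.000384), the reverse of its difference under PBS. Mgll was again lower, with a difference of -1.52 ± 0.0846 or 2.87-fold (adjusted p = 2.31e-09). Lipa had a difference of -0.39 ± 0.0629 (adjusted p = 0.000132). The calls of Dgat2, Hilpda, Mgll and Lipa held in every fit that left out 1 library.

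The calls of Abhd5, Pnpla2 and Dgat1 under LPS rested on single libraries. Abhd5 was higher by 0.23 ± 0.0766 (adjusted p = 0.0242), but by 0.17 without WT LPS replicate 1 (adjusted p = 0.0811) and by 0.16 without KO LPS replicate 1 (adjusted p = 0.142), and it was not called with upper-quartile scaling (0.16) or library totals alone (0.14). Pnpla2 had a difference of -0.22 ± 0.0804 (adjusted p = 0.0354) although its libraries overlapped, and -0.12 without WT LPS replicate 1 (adjusted p = 0.151). Without KO LPS replicate 1 or 2 it was -0.17 or -0.21 and not called. Dgat1 lost its call without WT LPS replicate 3 (-0.32) or without KO LPS replicate 1 (-0.21) or 2 (-0.35). Plin2 and Lpin2 were not called, with differences of 0.11 ± 0.0543 (adjusted p = 0.125) and -0.12 ± 0.109 (adjusted p = 0.396). As a description only, Lpin1 had 23 counts in all in WT LPS, of which 11 were in replicate 1, and 6 in KO LPS, a scaled ratio of 3.55 (exact 95% counting interval 1.41 to 10.7).

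**Figure D3:**
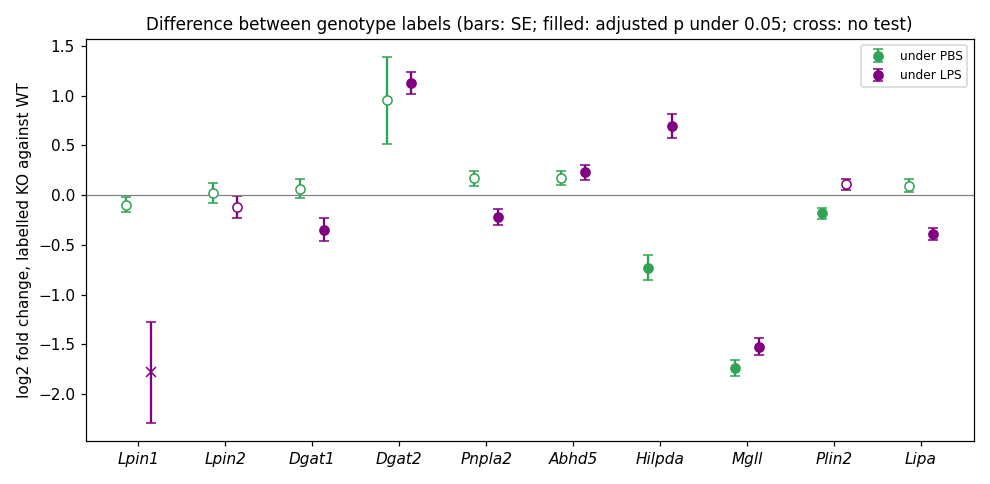
Log2 fold change of each gene in libraries labelled KO against WT under PBS (green) and under LPS (purple), with SE bars; filled dots had an adjusted p under 0.05, and the cross marks Lpin1 under LPS, for which no test is given. Mgll lies near -1.7 and -1.5 under both treatments, Hilpda lies below 0 under PBS and above 0 under LPS, and Dgat2 lies near 1 under both. Dgat2 is called under LPS, and its open dot under PBS is not read as a test.

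Markers of other cells moved with the labels beside these genes. The summed level of 4 fibroblast markers was 66.3 to 80.1 CPM in WT PBS and 29.3 to 40.8 in KO PBS, and 108 to 119 in WT LPS and 49.8 to 62.2 in KO LPS, with all 4 detected in each group. That of 5 skeletal muscle markers was 17.2 to 22.1 CPM in WT PBS and 0.106 to 18.7 in KO PBS, and 27.8 to 33.4 in WT LPS and 0.123 to 0.249 in KO LPS. The fibroblast sum was higher in WT without overlap under both treatments, as was Mgll, and the muscle sum under LPS. The sum of 8 mesothelial markers was 11.6 to 13.1 CPM in WT PBS and 6.69 to 10.8 in KO PBS, also without overlap, and 11.8 to 15.0 in WT LPS and 8.96 to 13.6 in KO LPS, which overlapped. The part of these cells in the differences between the labels was not tested. Neutrophil markers summed to 4.002 to 16.01 CPM over all groups, and B cell, T cell and mast cell markers to less than 2 CPM each. The neutrophil sum was nearly all S100a8. Camp had at most 13 counts in any library, and S100a9, Mpo, Elane and Retnlg at most 2. In such bulk libraries, fewer cells of a type and less message per cell cannot be told apart.

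Whether the response to LPS differed between the labels was tested as an interaction. Lpin1 is again left out, with 6 counts in KO LPS. The interaction was called for 4 of the other 9 genes, 2 higher and 2 lower in KO, and for 18.0% of all genes tested. Hilpda gained 1.42 ± 0.177 log2 units more with LPS in KO than in WT (adjusted p = 0.0001). Lipa lost more in KO, with an interaction of -0.49 ± 0.0886 (adjusted p = 0.00132), and so did Pnpla2, with -0.39 ± 0.111 (adjusted p = 0.0229), although that call was lost without WT PBS replicate 2 (-0.36) or KO LPS replicate 1 (-0.34). Plin2 had an interaction of 0.29 ± 0.0768 (adjusted p = 0.0161), which was 0.15 with library totals alone and 0.24 with upper-quartile scaling, neither called, and 0.24 to 0.26 and not called without WT PBS replicate 1 or KO PBS replicate 1 or 3. Dgat2 had 0.17 ± 0.533, an SE that leaves its difference in response poorly measured. It is counted among the 9 but given no test, since its few PBS counts passed the filter only through the LPS libraries. Mgll had 0.21 ± 0.116 (adjusted p = 0.232), Abhd5 0.06 ± 0.103 (adjusted p = 0.759) and Dgat1 -0.41 ± 0.151 (adjusted p = 0.0721). Dgat1 was called and Plin2 was not with library totals alone, where 1 of the calls was higher and 3 were lower.

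**Figure D4:**
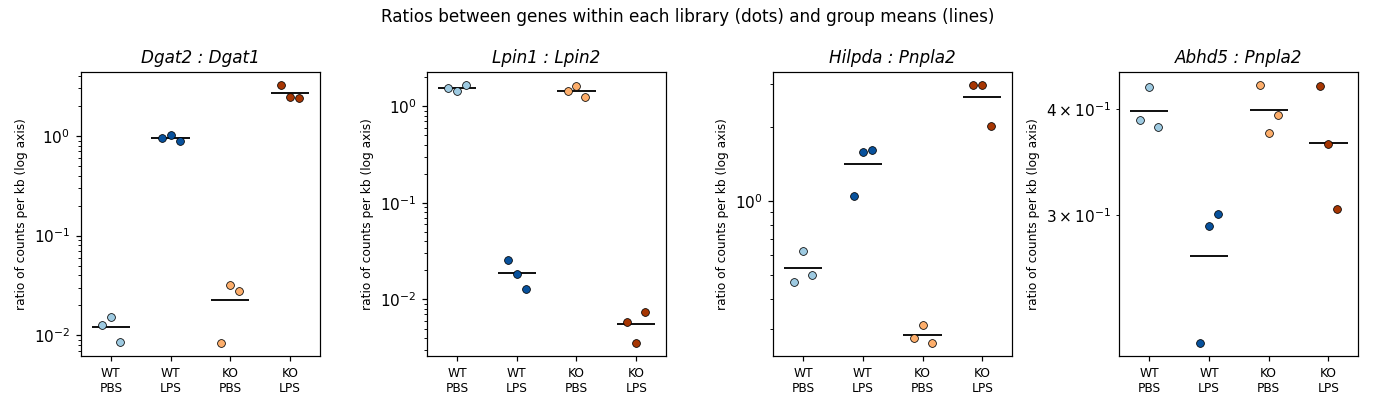
Ratios between genes within each library, from counts per kb of exon on log axes, for Dgat2 to Dgat1, Lpin1 to Lpin2, Hilpda to Pnpla2 and Abhd5 to Pnpla2. Dots are libraries and lines are means of 3. Dgat2 to Dgat1 and Hilpda to Pnpla2 are higher in each LPS library than in each PBS library, Lpin1 to Lpin2 is lower, and Abhd5 to Pnpla2 varies least.

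To place the 10 genes in their pathways, 82 further genes of 7 roles were examined, of which 80 were in the table and 64 were tested. With LPS, 18 were higher and 35 lower in WT, against 36.5% and 40.2% of all genes tested. In KO, 19 were higher and 37 lower, against 38.8% and 41.1%. These splits depended on the scaling, with 7 higher and 56 lower in WT and 6 and 54 in KO with library totals alone, and 11 and 45 in WT and 13 and 43 in KO with upper-quartile scaling.

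Among genes of triglyceride synthesis, 9 rose and 3 fell of 14 tested in WT, and 10 rose and 3 fell in KO, but with library totals alone 4 rose and 10 fell in WT and 4 rose and 8 fell in KO. Acsl1 and Acsl5, which activate fatty acids, rose by 2.71 ± 0.0603 and 1.41 ± 0.0546 in WT and by 2.71 and 1.66 in KO (adjusted p = 1.63e-16 and 2.47e-13 in WT). Cnep1r1, which encodes a part of the phosphatase that activates lipins, rose by 1.38 in WT and 1.47 in KO. Among the falls were Acsl3, with -1.67 in WT and -0.92 in KO, and Gpam, an acyltransferase gene of the first step, with -0.61 in WT and -0.57 in KO. Gpat3, another such gene, had -0.41 ± 0.196 and -0.16 ± 0.188 and was not called.

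Of 15 tested genes of fatty acid uptake and synthesis, 13 were lower with LPS in WT and 12 in KO, against 40.2% and 41.1% of all genes tested. These genes were listed with earlier results of these data known. Under each scaling run, 12 to 15 were lower. With edgeR, 0 were called higher under either label after TMM scaling, and 1 in KO after RLE scaling. At an unadjusted p under 0.05, 0 were higher in WT and 1 in KO, and DESeq2 also called 0 and 1. The desaturase gene Scd2 had a change of -4.03 ± 0.112 in WT and -3.61 ± 0.128 in KO. Fabp4, a fatty acid carrier, had -2.38 and -2.70, and Elovl5 and Fads1, which lengthen and desaturate fatty acids, had -2.03 and -1.93 in WT. Lpl, which frees fatty acids from lipoproteins, had -0.30 in WT and -0.71 in KO, and the scavenger receptor gene Cd36 had -0.19 under both labels.

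The remaining roles were mixed. In lipolysis, Lipe, the hormone-sensitive lipase gene, rose by 1.93 ± 0.0900 in WT and 1.34 ± 0.0931 in KO, opposite to Pnpla2. G0s2, another inhibitor of the lipase that Pnpla2 encodes, was not tested for want of counts. Of 8 coat and assembly genes, 2 rose and 4 fell in WT (0 and 8 with library totals alone). Plin3 fell, with -2.01 in WT and -2.23 in KO, beside -0.03 and 0.26 for Plin2. Both sterol ester genes fell, namely Soat1, which makes cholesteryl ester, with changes of -1.70 and -2.09, and Nceh1, which splits it, with -1.95 and -2.40. In fatty acid oxidation, 7 of 11 fell and 1 rose in WT (11 fell with library totals alone), with the gatekeeper Cpt1a at -0.32 in WT and -0.28 in KO. Among regulators, Hif1a rose by 2.05 in WT and 2.39 in KO. The lysosome regulator gene Tfeb fell, with -3.62 and -4.13, and so did Pparg, which drives fat storage, with -3.13 and -3.59.

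Between the labels, the role with the largest number of calls was fatty acid uptake and synthesis, with 10 of 15 lower in KO PBS and 11 of 15 lower in KO LPS, beside 13.0% and 19.3% of all genes tested. None was called higher by edgeR or DESeq2 under either treatment, and 0 were higher at an unadjusted p under 0.05. The list was drawn up with earlier results of these data known. It includes Fads2, which passed the filter on low counts through the WT libraries and is not read as a test. Fads2 had 35, 36 and 36 counts in WT PBS and 10, 11 and 7 in KO PBS. Scd2 had differences of -1.49 ± 0.0913 under PBS (adjusted p = 1.41e-08) and -1.08 ± 0.155 under LPS (adjusted p = 4.62e-05). The fatty acid synthase gene Fasn had -1.11 ± 0.205 (adjusted p = 0.00294) and -0.99 ± 0.247 (adjusted p = 0.00867). Its WT LPS libraries stood at 38.2, 19.2 and 20.7 CPM, with replicate 1 apart, and its KO LPS libraries at 14.5, 10.6 and 14.2. Srebf1, the regulator gene of fatty acid synthesis, had -0.37 and -0.47, Cd36 had -0.31 under both, and Acaca had -0.53 under PBS. Replicate 1 was also the highest of WT LPS for Srebf1, at 89.3 CPM against 72.4 and 70.1. Fads1 had -1.10 under LPS. Over all 64, 4 were higher and 15 lower under PBS, and 8 were higher and 30 lower under LPS. The 64 include Ppargc1a, which had at most 3.94 counts in an LPS library and is not read as a test under LPS. Over all genes tested, 12.3% were higher and 13.0% lower under PBS, and 22.1% and 19.3% under LPS. For the 64 genes, library totals alone gave 7 higher and 13 lower under PBS and 5 and 39 under LPS. Upper-quartile scaling gave 5 and 37 under LPS.

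The 4 higher calls under PBS (Cpt1a, Pparg, Nceh1 and Ppargc1b) rested on single WT PBS libraries, with 0 called higher without replicate 3 and 1 without replicate 2. Cpt1a was higher by 0.27 under PBS and 0.31 under LPS. Pparg was higher by 0.25 and Nceh1 by 0.18 under PBS, and Ppard was higher by 0.69, Acsl4 by 0.52, Agpat4 by 0.51 and Hif1a by 0.31 under LPS. Ppargc1b, a coactivator gene for oxidation, was higher by 0.36 under PBS and had -1.09 under LPS. Acsl3 had -0.68 under PBS, and Acaa2, a thiolase gene, had -0.68 under LPS.

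**Figure D5:**
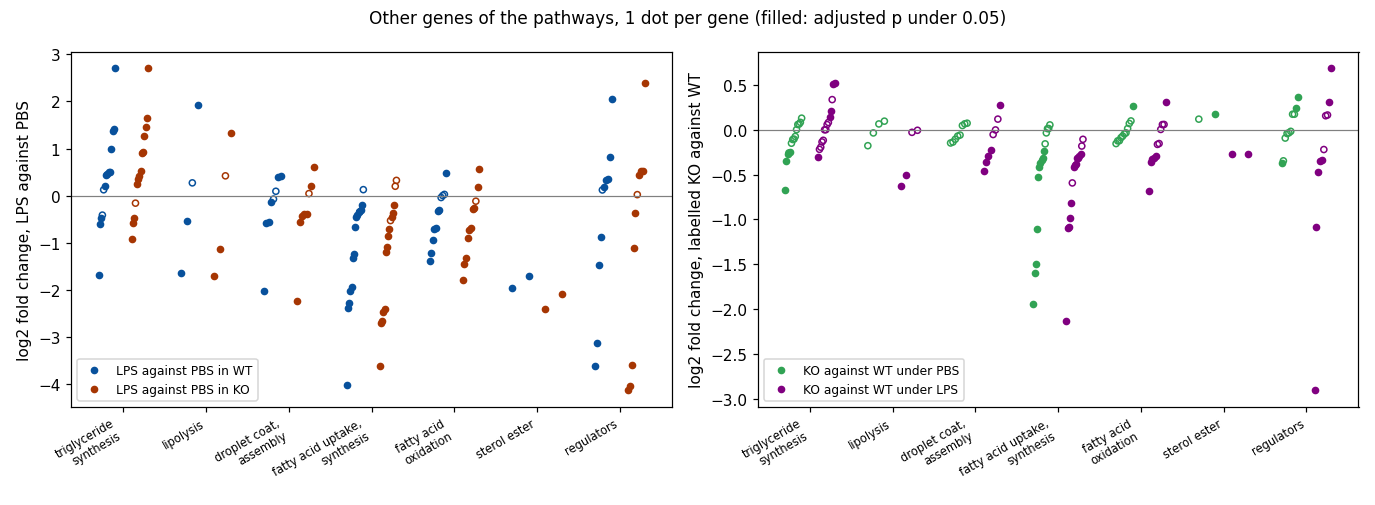
Log2 fold changes of the 64 further genes by role, with LPS against PBS in WT and in KO (left) and in KO against WT under PBS and under LPS (right). Each dot is 1 gene and filled dots had an adjusted p under 0.05. In the right panel, the dots of fatty acid uptake and synthesis lie mostly below 0 under both treatments.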

How the data were processed

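RNA-seq was carried out by the authors on a BGISEQ-500 sequencer. The deposited tables hold expected counts (estimated counts per gene, not scaled between libraries). The submitters' notes name Bowtie2, RSEM 1.3.1 and build GRCm38.p6, whereas the methods of the study name STAR and HTSeq. Between 24.6% and 26.9% of values in a library carried decimals, and all were rounded here. Lpin2 had decimals in 11 libraries and Plin2 in 12.

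In R 4.3.3, edgeR 4.0.16 was used with filterByExpr on the 4 groups, trimmed mean of M values (TMM) scaling, and a robust quasi-likelihood fit with 1 mean per group to all 12 libraries. P-values were two-sided. The floor of 3 counts equalled 0.105 to 0.186 CPM. Exon lengths came from GENCODE. Alternatives were other scalings, other filters, DESeq2 1.42.0, fits to the libraries compared, a replicate block and each library left out. Summing both Plin2 rows was chosen after seeing the data. The pipeline was tested on simulated data.

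The 10 genes and the wider lists were chosen with earlier results of these data known. Further genes named are, per comparison, the 5 with the largest change each way among those called, with at least 5 CPM in the higher group and no overlap (not required for the interaction), plus 12 fixed names. The kappaB-like letters were shortened after the matches to a longer form had been seen.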

Additional observations from a re-analysis of the deposited data

Results flagged for a closer look

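The response to LPS differed between the genotype labels, by the interaction test, for 4 of the 9 genes other than Lpin1, for which no test is given. The test is not read for Dgat2 either, which is among the 9. Over all genes tested 18.0% were called, and the calls of Pnpla2 and Plin2 were lost without single libraries. The interactions (log2, KO minus WT) were -0.39 for Pnpla2, 1.42 for Hilpda, 0.29 for Plin2 and -0.49 for Lipa. Among the further genes named, positive interactions were 0.79 for Agpat4, 0.76 for Acsl4, 0.76 for Acsl3, 0.34 for Hif1a and 0.24 for Acsl5. Negative interactions were -1.45 for Ppargc1b, -0.73 for Fads1, -0.61 for Acaa2, -0.60 for Abhd12, -0.60 for Lipe, -0.41 for Lpl, -0.39 for Soat1 and -0.47 for Pparg. All had an adjusted p under 0.05 with edgeR.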

How the results depend on the processing

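With only the libraries compared in the fit, the further genes called between the labels under PBS went from 19 to 31, the 10 genes called under PBS from 3 to 6 (Pnpla2, Abhd5 and Lipa added, with Dgat2 no longer past the filter), and those called under LPS from 8 to 4, where Lpin1 no longer passed it. The counts given here for LPS and for the interaction include Lpin1, for which the text gives no test. Those for PBS and for the interaction likewise include Dgat2. Leaving out 1 library gave 2 to 5 of the 10 genes called under PBS (5 without WT LPS replicate 1), 5 to 9 under LPS (5 on omitting replicate 1 of WT LPS or either replicate 1 or 2 of KO LPS) and 3 to 6 for the interaction (3 without KO LPS replicate 1, against 5). Among the further genes it gave 12 to 26 under PBS (12 without KO PBS replicate 2, and none of the 4 higher calls without WT PBS replicate 3), 33 to 38 under LPS, 14 to 29 for the interaction (14 without KO LPS replicate 1 or 3, against 22), 49 to 53 for LPS in WT and 54 to 57 for LPS in KO. Upper-quartile scaling turned the change of Lpin2 with LPS in WT to -0.19 and that of Plin2 in KO to -0.093, and library totals alone turned them to -0.54 and -0.54. Abhd5 under LPS was not called with these scalings (0.16 and 0.14). For the interaction among the further genes, library totals alone gave 3 higher and 22 lower, against 5 and 17. The cause of these shifts was not tested. The replicate numbers did not pair the libraries, with correlations of same-numbered deviations from -0.08 to 0.13, and not every library correlated best with its own number. A replicate block gave 23 interaction calls among the further genes against 22, and 57 against 56 for LPS in KO. It left the counts for the 10 genes at 3, 8 and 5. Depth limits Lpin1 with LPS and Dgat2 with PBS, which had at most 15 counts in a library.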

Other observations

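The neighbours of Mgll were examined after its values were seen. Of 19 tested genes within 1 Mb of it on chromosome 6, 8 were called in KO PBS with edgeR, all of them lower, and the differences ran from -1.01 for H1fx to 0.18 for Abtb1. Over all genes tested, 12.3% were called higher and 13.0% lower under PBS. Under LPS, 10 were called, of which 3 were higher and 7 lower, and the differences ran from -1.54 for Kbtbd12 to 0.84 for Efcc1, while 22.1% of all genes tested were called higher and 19.3% lower. No explanation was tested.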
